A study of Mus musculus with 6 samples.

Results

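The enzymes that turn arachidonic acid into prostaglandins and leukotrienes were examined through 9 mouse genes, Pla2g4a, Ptgs1, Ptgs2, Ptges, Ptgis, Alox5, Alox5ap, Lta4h and Hpgd. They were chosen by name from the 56884 genes of the mouse count table, across all 6 of its libraries, and each was found once. The RNA was labelled as liver of athymic male BALB/c (nu/nu) mice, labelled as 6 weeks old, into which cells of the human HCC line QGY-7703 had been implanted. All mice carried the human tumor and an AAV8 vector, given by tail vein 1 week after implantation and followed for another 3 weeks. The siControl group (3 libraries, genotype WT) received the vector with a control siRNA, and the siAATF group (3 libraries, genotype KD) received the vector with an siRNA against mouse Aatf. The siRNA is expressed from the thyroxine-binding globulin promoter, a hepatocyte promoter, so the other mouse cells of the liver were not its direct target, and nude mice lack a thymus and with it most mature T cells. By counts, the 3 siControl libraries were almost wholly RNA of the human tumor and the 3 siAATF libraries almost wholly mouse RNA. The libraries are bulk tissue, in which fewer cells of a type and less RNA per cell cannot be told apart.

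Eicosanoids are short-lived lipid messengers made where they act. Cytosolic phospholipase A2 (Pla2g4a) frees arachidonic acid from membranes. The cyclooxygenases (Ptgs1, present in many resting cells, and Ptgs2, which inflammatory signals induce) then make prostaglandin H2, from which Ptges forms prostaglandin E2 and Ptgis forms prostacyclin. In the parallel leukotriene route, Alox5 and its membrane partner FLAP (Alox5ap) act mainly in myeloid leukocytes and make leukotriene A4, and Lta4h hydrolyses it to leukotriene B4. Hpgd begins the breakdown of prostaglandins. In the liver, Kupffer cells and recruited leukocytes are the best-known eicosanoid producers, and prostaglandin E2 is widely studied as a promoter of tumor growth.

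The libraries differed in how much mouse RNA they held. Mouse counts ranged from 213022 to 913584 in siControl (0.778% to 1.93% of the counts on human and mouse genes), and from 11835898 to 42563694 in siAATF (97.9% to 99.0%). A gene without a count could still have reached 3 counts, which is 1.67 to 7.25 CPM (counts-per-million of the mouse counts, after TMM normalization) in the siControl libraries and 0.104 to 0.605 CPM in the siAATF libraries. The siRNA target, mouse Aatf, gave 12, 1 and 23 counts in the siControl libraries and 384, 109 and 340 counts in the siAATF libraries, or 9.63, 2.42 and 12.8 CPM against 13.3, 22.0 and 18.9 CPM. Its log2 fold change was 0.93 after TMM (adjusted p = 0.152, edgeR) and -0.92 by mouse counts alone (adjusted p = 0.174), with no call either way, and 5.04 by all gene counts, called higher (adjusted p = 3.77e-10). No scaling called Aatf lower, and every direction below refers to the labels of the libraries. The p-values measure the spread between the 3 libraries of a group, for which the labels name no further source. Among 18018 mouse genes tested with edgeR's quasi-likelihood test, 14.4% were called lower and 17.6% higher in siAATF at a Benjamini-Hochberg adjusted p under 0.05, and the median log2 fold change was 0.50. All folds below are on this TMM scale unless another is named.

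Of the 9 genes, 6 fell in siAATF (Pla2g4a, Ptgs2, Ptges, Ptgis, Alox5 and Alox5ap), none was called higher and 3 were not called (Ptgs1, Lta4h and Hpgd). The same 6 had every siAATF library below every siControl library, which 18.1% of all tested genes did, and the opposite order, which 34.5% of tested genes had, occurred in none of the 9. The median log2 fold change of the 9 genes was -3.71, beside 0.50 over all tested genes. At an unadjusted p under 0.05, edgeR and DESeq2 likewise called 0 of the 9 higher and limma-voom called 1, while at the adjusted threshold DESeq2 and limma-voom called 0. All 9 genes passed the filter of 10 counts in total, although none had 10 counts in every library, and their counts in siControl ran from 0 to 88.

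**Figure D1:**
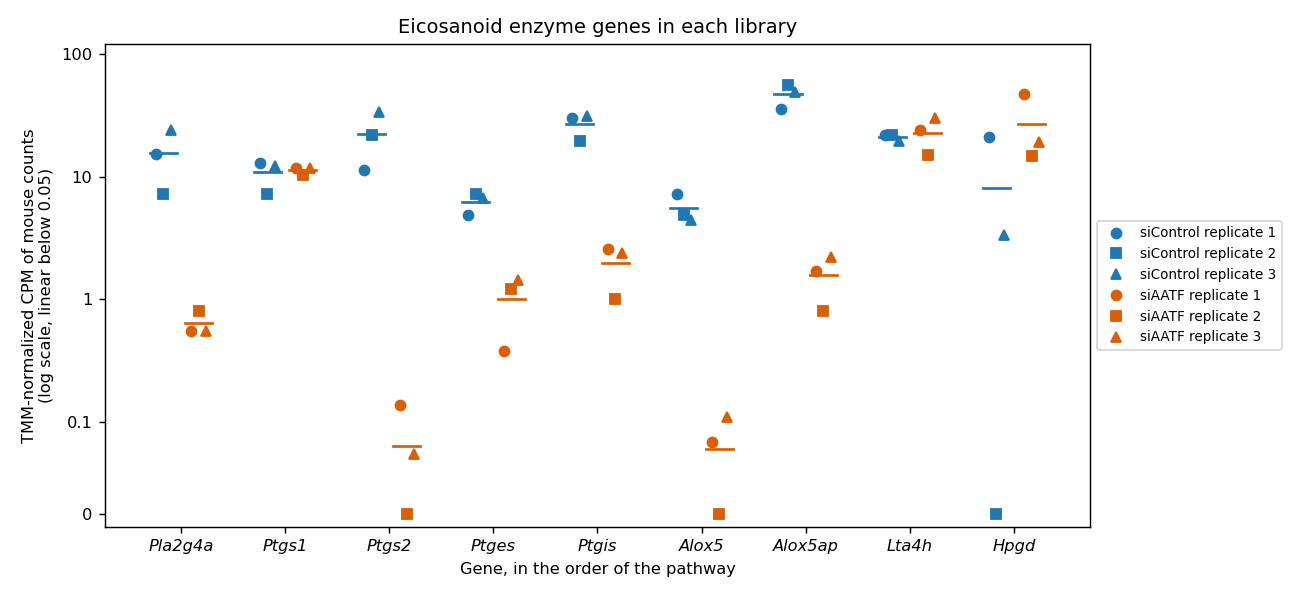
TMM-normalized CPM of mouse counts (log axis, linear below 0.05) for each of the 9 genes, in the order of the pathway, with a point for each of the 3 siControl libraries and the 3 siAATF libraries and a line at each group mean. Pla2g4a, Ptgs2, Ptges, Ptgis, Alox5 and Alox5ap separate without overlap, while the groups overlap for Ptgs1, Lta4h and Hpgd.

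The direction of these genes depended on what the counts were divided by. Scaled by human and mouse gene counts together, which gives a level per total RNA of the sample, 1 gene was called lower (Ptgs2, log2 fold change -3.52) and 3 were called higher (Ptgs1, 4.21; Lta4h, 4.43; Hpgd, 5.83). On that scale 0.66% of all mouse genes were called lower and 87.2% higher, the median over all of them was 4.66, and that of the 9 genes was 0.54. Scaled by mouse counts alone, 40.4% of all genes and 8 of the 9 were called lower, and 4.15% of all genes and 0 of the 9 higher. Summed over the 9 genes, the siControl libraries held 5.42, 2.19 and 6.11 CPM of all gene counts and the siAATF libraries 59.5, 17.9 and 34.3 CPM. The mean sums were 4.57 ± 2.09 (SD, n = 3) and 37.2 ± 20.9 (SD, n = 3), with no overlap between groups (two-sided exact permutation p = 0.1, the smallest that 3 libraries against 3 allow). Per mouse count the same sum went the other way, from 163 ± 19.8 CPM in siControl to 66.4 ± 22.2 CPM in siAATF (SD, n = 3 each, two-sided exact permutation p = 0.1).

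**Figure D2:**
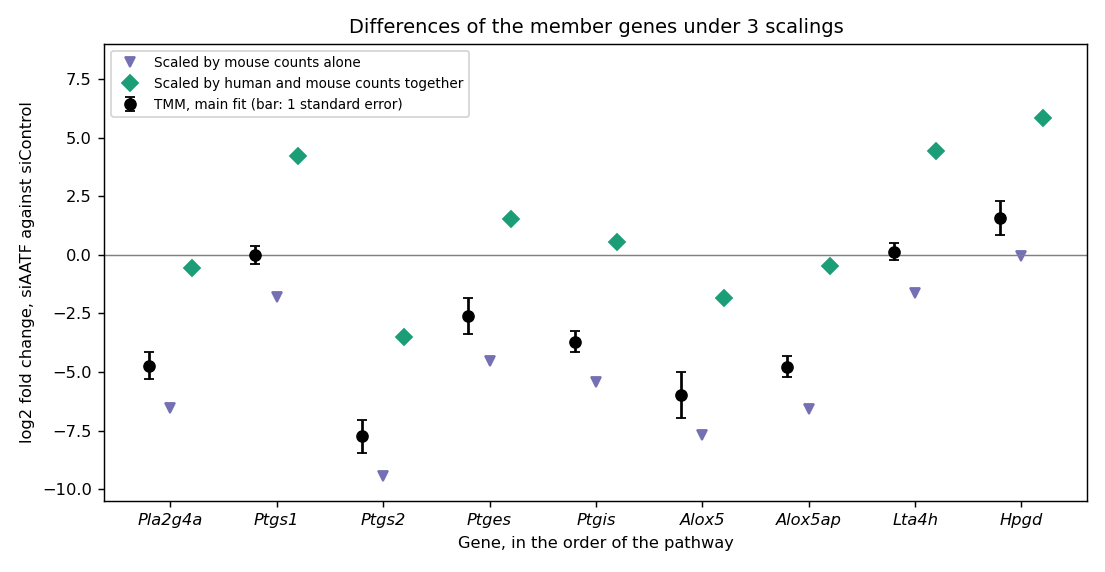
log2 fold change of siAATF against siControl for each of the 9 genes under TMM (circles, bars of 1 standard error), under scaling by mouse counts alone (triangles) and under scaling by human and mouse counts together (diamonds). Pla2g4a, Ptgs2, Alox5 and Alox5ap lie below 0 under all 3 scalings, while the sign of Ptgs1, Ptges, Ptgis, Lta4h and Hpgd depends on the scaling.

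Pla2g4a (ENSMUSG00000056220, GRCm39 chr1:149705369-149837041, minus strand), which starts both routes, fell. It had 19, 3 and 43 counts in siControl replicates 1 to 3 and 16, 4 and 10 counts in siAATF. These are 15.3, 7.25 and 24.0 CPM against 0.552, 0.807 and 0.555 CPM, so the siAATF libraries lay close together and the siControl libraries varied more. Pla2g4a had a log2 fold change of -4.74 ± 0.58 (SE, n = 3 per group, adjusted p = 0.000101, edgeR). After thinning every library to the smallest mouse total it was -3.10 (adjusted p = 0.0354, edgeR). Relative to all gene counts the groups overlapped.

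Ptgs1 (ENSMUSG00000047250, chr2:36120438-36142284, plus strand) encodes cyclooxygenase-1, the form made without stimulation. It had 16, 3 and 22 counts in siControl and 341, 51 and 213 counts in siAATF. These are 12.8, 7.25 and 12.3 CPM against 11.8, 10.3 and 11.8 CPM, so all siAATF libraries lay within the siControl range. Its log2 fold change was -0.0045 ± 0.40 (SE, adjusted p = 0.995, edgeR), and its sign changed between alternatives. Scaled by mouse counts alone, Ptgs1 was called lower (-1.79).

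Ptgs2 (ENSMUSG00000032487, chr1:149975782-149983978, plus strand) encodes cyclooxygenase-2, the inducible form, and had the largest fall of the 9 genes. It had 14, 9 and 60 counts in siControl replicates 1 to 3. In the far deeper siAATF libraries it had 4, 0 and 1 counts. In CPM, siControl held 11.2, 21.7 and 33.5 and siAATF 0.138, 0 and 0.0555, so that the whole siAATF group lay near the limit of detection. This was a log2 fold change of -7.74 ± 0.71 (SE, adjusted p = 2.73e-05, edgeR), with -8.40 without siAATF replicate 1 and -5.83 after thinning. As summed counts over summed effective library sizes, siAATF had 0.00400 times the siControl rate, with a 95% interval of 0.00127 to 0.00972 that covers counting error only.

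The balance of the cyclooxygenase pair does not depend on scaling between libraries. Ptgs2 took 46.7% (14 of 30; 95% Wilson interval 30.2% to 63.9%), 75.0% (9 of 12; 46.8% to 91.1%) and 73.2% (60 of 82; 62.7% to 81.6%) of the counts of both genes in siControl replicates 1 to 3. In siAATF it took 1.16% (4 of 345; 0.452% to 2.94%), 0% (0 of 51; up to 7.005%) and 0.467% (1 of 214; 0.0825% to 2.60%). By raw counts Ptgs2 was thus the larger or near-equal part of the pair in each siControl library and a trace in each siAATF library. The mean shares were 64.9% ± 15.9 and 0.542% ± 0.583 (SD, n = 3 each, two-sided exact permutation p = 0.1, the smallest possible). Corrected for gene length, the mean shares were 55.2% and 0.350%. Per kilobase, Ptgs2 had 2.52, 4.88 and 7.52 CPM in siControl replicates 1 to 3 and Ptgs1 had 4.48, 2.53 and 4.28 CPM, so replicate 1 held less Ptgs2 than Ptgs1.

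**Figure D3:**
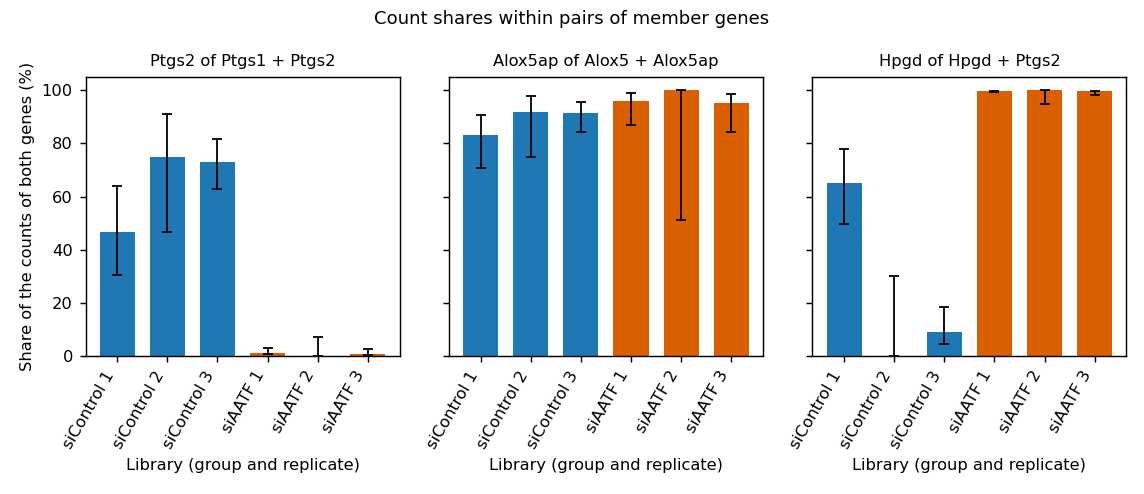
Share of the counts of a gene pair taken by 1 of its genes, in percent, in each of the 6 libraries (bars, siControl blue and siAATF orange) with 95% Wilson intervals. Ptgs2 falls from 46.7% or more of the cyclooxygenase counts to 1.16% or less, Alox5ap is at 83.0% or more of its pair throughout, and Hpgd is above 99.7% of the Hpgd and Ptgs2 counts in siAATF and 65.0% or less in siControl.

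Pla2g4a and Ptgs2 are neighbours. They lie head to head on chromosome 1, with 138.74 kb and 3 genes of the mouse table between them, none of which is protein-coding, and both fell. The 250 bases upstream of the annotated start of both genes, and of Ptgs1 as the cyclooxygenase whose level did not separate the groups, are shown here from the GRCm39 genome at the starts of the deposited table. Capitals mark matches to TTNNGNAA, a form of the C/EBP site. The capitals of Pla2g4a are 2 overlapping matches on opposite strands, and the longer run in Ptgs2 also holds a match to a loose NF-κB pattern.
Ptgs2 (chr1:149975532-149975781, plus strand): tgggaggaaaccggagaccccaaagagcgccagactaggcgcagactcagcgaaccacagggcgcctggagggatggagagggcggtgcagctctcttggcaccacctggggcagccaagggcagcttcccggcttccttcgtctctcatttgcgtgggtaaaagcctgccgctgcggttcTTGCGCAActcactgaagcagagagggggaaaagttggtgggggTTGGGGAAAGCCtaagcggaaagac
Pla2g4a (chr1:149837042-149837291, minus strand): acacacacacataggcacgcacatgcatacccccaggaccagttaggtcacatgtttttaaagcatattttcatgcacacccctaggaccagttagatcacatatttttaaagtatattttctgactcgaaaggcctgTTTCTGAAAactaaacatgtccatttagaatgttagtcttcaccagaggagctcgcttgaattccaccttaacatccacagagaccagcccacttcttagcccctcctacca
Ptgs1 (chr2:36120188-36120437, plus strand): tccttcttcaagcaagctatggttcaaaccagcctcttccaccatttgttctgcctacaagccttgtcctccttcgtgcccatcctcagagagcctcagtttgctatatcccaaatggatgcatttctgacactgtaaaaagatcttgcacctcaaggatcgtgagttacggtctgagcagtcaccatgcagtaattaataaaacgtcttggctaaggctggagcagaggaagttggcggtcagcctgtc

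The upstream bases of Ptgs2 were 61.6% G and C, those of Ptgs1 48.0% and those of Pla2g4a 43.2%, beside a median of 54.8% over 21633 genes. A set of 7 patterns was searched on both strands from 250 bases before to 50 bases after each start. TTNNGNAA occurred in 38.3% of all windows and in those of Ptgs2, Ptges, Hpgd and Pla2g4a. In Ptgs2 it lay 69 and 25 bases upstream, the second overlapping a match to the NF-κB pattern. That pattern, GGG and CC set 5 bases apart, occurred in 56.79% of all windows and in those of Ptgs1, Ptgs2, Ptges, Ptgis, Alox5 and Lta4h. The E-box CACGTG occurred in 7.77% of windows and in Ptgs2 and Hpgd, TATAAA in 12.64% and in Hpgd, and CCAAT in 39.34% and in Lta4h. TGACGTCA (2.54%) and TGANTCA (6.78%), the letters of CRE and AP-1 sites, were in none of the 9 windows, and no pattern was shared by the 6 genes that fell. Matches and absences refer to the starts of the deposited table. The GENCODE annotation that named the genes puts some outer starts elsewhere, such as Ptgs2 (149975194), Ptges (30820196), Ptgis (167083018) and Alox5ap (149196003). RefSeq promoter windows were lacking for Ptgis and Alox5ap, and those of the other members shared sequence with the windows used.

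Downstream of the cyclooxygenases, Ptges (ENSMUSG00000050737, chr2:30779483-30793309, minus strand), the inducible prostaglandin E2 synthase, had the smallest fall of the 6. It had 6, 3 and 12 counts in siControl and 11, 6 and 26 counts in siAATF. These are 4.82, 7.25 and 6.69 CPM against 0.380, 1.21 and 1.44 CPM, so each siAATF library lay below each siControl library. Its log2 fold change was -2.63 ± 0.77 (SE, adjusted p = 0.0198, edgeR). The call was lost without siControl replicate 3 (adjusted p = 0.0973, log2 fold change -2.56) or without siAATF replicate 1 (adjusted p = 0.0586, log2 fold change -2.15), and all gene counts gave 1.53 with no call.

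Ptgis (ENSMUSG00000017969, chr2:167033725-167082524, minus strand) makes prostacyclin, mainly in vessel walls and fibroblasts. It had 37, 8 and 56 counts in siControl and 74, 5 and 43 counts in siAATF, or 29.7, 19.3 and 31.2 CPM against 2.55, 1.01 and 2.39 CPM. By TMM both groups were compact and far apart, and the log2 fold change was -3.71 ± 0.46 (SE, adjusted p = 0.000106, edgeR). Relative to all gene counts the groups overlapped, at a log2 fold change of 0.54 with no call, and thinning gave -2.67. Markers of the known source cells of Ptgis were mixed. Of 8 fibroblast and stellate cell markers 6 fell by TMM, with a summed TMM level of 6271 to 9194 CPM in siControl against 329 to 515 CPM, and 2 were not called. By all gene counts 2 of these fibroblast and stellate cell markers fell and 3 rose. Of 8 endothelial markers 4 fell and 1 rose by TMM (459 to 582 CPM against 122 to 271 CPM). By all gene counts 0 of the endothelial markers fell and 6 rose, on a scale where 87.2% of all mouse genes rose. The part of these markers in the fall of Ptgis by TMM was not tested.

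Alox5ap (ENSMUSG00000060063, chr5:149201577-149224963, plus strand), which encodes FLAP, was the most abundant of the 9 genes per kilobase in siControl. It had 44, 23 and 88 counts in siControl and 49, 4 and 40 counts in siAATF. These are 35.3, 55.6 and 49.1 CPM against 1.69, 0.807 and 2.22 CPM, with no overlap. The log2 fold change was -4.77 ± 0.45 (SE, adjusted p = 2.99e-05, edgeR), and relative to all gene counts the groups overlapped. After thinning, which left Alox5ap no count in siAATF, the fitted fold was -6.66.

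Alox5 (ENSMUSG00000025701, chr6:116387038-116438139, minus strand), the 5-lipoxygenase itself, had few counts in every library. There were 9, 2 and 8 counts in the siControl libraries and 2, 0 and 2 in the siAATF libraries, or 7.23, 4.83 and 4.46 CPM against 0.0690, 0 and 0.111 CPM. Its fitted log2 fold change was -5.98 ± 0.97 (SE, adjusted p = 0.000599, edgeR). By summed counts siAATF had 0.0140 times the siControl rate (95% interval 0.00346 to 0.0421, counting error only). Relative to all gene counts the fit made no call (log2 fold change -1.83, adjusted p = 0.145, edgeR), and the library without a count could have lain among the siControl libraries on that scale.

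Within the leukotriene pair, Alox5ap took 83.0%, 92.0% and 91.7% of the counts of Alox5 and Alox5ap in siControl and 96.1%, 100% and 95.2% in siAATF. The mean shares were 88.9% ± 5.09 and 97.1% ± 2.54 (SD, n = 3 each, two-sided exact permutation p = 0.1). The counting intervals were wide (75.0% to 97.8% in siControl replicate 2, with 23 of 25 counts, and 51.0% to 100% in siAATF replicate 2, with 4 of 4), which leaves the size of the difference poorly known. Across libraries the groups did not overlap, as for the share of Ptgs2. Markers of the leukocytes known for both genes were examined beside them. Of 8 macrophage and monocyte markers 6 fell by TMM (1307 to 2169 CPM summed against 31.5 to 201 CPM). By all gene counts 1 fell and 2 rose, and the sums overlapped (19.8 to 74.0 CPM against 12.9 to 102.6 CPM). Of 9 neutrophil markers 6 fell by TMM (96.3 to 1930 CPM against 2.42 to 141 CPM, ranges that overlap) and 0 were called by all gene counts. Of 5 Kupffer cell markers edgeR called 0 (2 higher at an unadjusted p; 16.9 to 110.0 CPM against 78.7 to 133 CPM), DESeq2 called 0 and limma-voom 1, higher. By all gene counts all 5 were called higher, where 87.2% of all genes were, and by mouse counts alone 1 lower, where 40.4% were. Of 6 mast cell markers, 1 (Kit) could be tested and was not called by TMM, but higher by all gene counts and lower by mouse counts alone, and Cpa3, Mcpt4 and Tpsb2 had no count in any library. The part of these cells in the values of Alox5, Alox5ap and Ptgs2 was not tested.

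Lta4h (ENSMUSG00000015889, chr10:93289273-93320736, plus strand), which completes leukotriene B4 and is made by many cell types, had 27, 9 and 35 counts in siControl and 691, 74 and 535 counts in siAATF. These are 21.7, 21.7 and 19.5 CPM against 23.8, 14.9 and 29.7 CPM, so the siControl values lay inside the siAATF range. The log2 fold change was 0.14 ± 0.38 (SE, adjusted p = 0.813, edgeR). It was called lower when scaled by mouse counts alone (-1.64).

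Hpgd (ENSMUSG00000031613, chr8:56747620-56774078, plus strand), the 15-hydroxyprostaglandin dehydrogenase that inactivates prostaglandins, was the least even of the 9 genes in siControl. It had 26, 0 and 6 counts there and 1368, 73 and 343 counts in siAATF. These are 20.9, 0 and 3.35 CPM against 47.2, 14.7 and 19.0 CPM, and siControl replicate 1 lay above 2 of the 3 siAATF libraries. The log2 fold change was 1.57 ± 0.74 (SE, adjusted p = 0.126, edgeR). Without siControl replicate 1 it was 3.42 with a call (adjusted p = 0.0109), and without siAATF replicate 3 it was 1.87 with a call (adjusted p = 0.0190). Without siAATF replicate 1 it was 0.96 (adjusted p = 0.312) and without siControl replicate 3 it was 1.07 (adjusted p = 0.402). With the replicate block (1.94, adjusted p = 0.000166) and without a filter (1.71, adjusted p = 0.00172) it was called higher. All 8 hepatocyte markers rose by TMM (7 by mouse counts alone), from 3041 to 7411 CPM summed in siControl to between 38361 and 109740 CPM, and siControl replicate 1 had the most Alb counts of its group (3081, beside 438 and 2033). Their part in the values of Hpgd was not tested.

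Set against the inducible cyclooxygenase, the degrading enzyme took 65.0% (26 of 40), 0% (0 of 9, with an upper 95% Wilson limit of 29.9%) and 9.09% (6 of 66) of the counts of Hpgd and Ptgs2 in siControl. It took 99.7%, 100% and 99.7% in siAATF. On average this was 24.7% ± 35.2 and 99.8% ± 0.168 (SD, n = 3 each, two-sided exact permutation p = 0.1). The groups did not overlap, and siControl replicate 1 stood apart from the other siControl libraries.

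The order of the genes by level per length also differed. In TMM CPM per kilobase, Alox5ap came first in siControl at 34.7 ± 7.68 (SD, n = 3). It was followed by Ptgis at 11.7 and Lta4h at 10.3, whose ranges overlapped, and then by Pla2g4a, Ptgs2, Hpgd, Ptgs1, Alox5 and Ptges between 5.08 and 1.71, among which no neighbours separated. In siAATF, Hpgd (16.0 ± 10.5) and Lta4h (11.2 ± 3.66) came first with overlapping ranges. Ptgs1 followed at 3.94, then Alox5ap (1.17) and Ptgis (0.866), which overlapped, then Ptges (0.277) and Pla2g4a (0.209), which overlapped, and last Alox5 (0.0213) and Ptgs2 (0.0145), which overlapped. Ptgs1 thus stood above Ptgs2 by 3.94 against 0.0145 CPM per kilobase in siAATF, and the ranges of the pair overlapped in siControl.

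The remaining pathway was described through 6 lists with 68 genes in the table, of which 49 could be tested, 13 fell and 18 rose. The shares over all tested genes are 14.4% and 17.6%. Scaled by all gene counts, 1 of the 49 was called lower and 35 higher, where 0.66% and 87.2% of all genes were. Scaled by mouse counts alone, 23 and 9 were called, where 40.4% and 4.15% of all genes were. Calls by these scalings in each list below are to be read beside the same shares. The receptor list had 14 genes in the table, those of prostaglandins, thromboxane and leukotrienes and Fpr2, a receptor of formyl peptides and lipoxin. Of the 9 that could be tested, 5 fell (Ptger2, Ptger3, Ptger4, Cysltr1 and Fpr2, of which Ptger3 lost its call without siControl replicate 3) and none was called higher, with a median log2 fold change of -4.03. At an unadjusted p, edgeR, DESeq2 and limma-voom also called 0 of the 9 higher, whereas scaling by all gene counts called 3 higher and 0 lower, with a median of 0.24. Ptger4, a prostaglandin E2 receptor that signals through cAMP, had 16.9, 12.1 and 17.8 CPM in siControl and 0.380, 0.202 and 0.555 CPM in siAATF (log2 fold change -5.23, adjusted p = 5.7e-05, edgeR). Ptger2, its closest relative in signalling, fell by 4.42 on the log2 scale from 9, 1 and 19 counts to 10, 1 and 7 counts in deeper libraries. The prostaglandin D2 receptor Ptgdr had no count in any library.

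Among the genes of arachidonate release, 7 of 13 could be tested, and the median log2 fold change was -0.17. Pla2g7, the secreted enzyme that hydrolyses platelet-activating factor, fell from 176.6, 87.0 and 129 CPM to 5.62, 0.807 and 12.1 CPM (log2 fold change -4.36, and -5.14 without siAATF replicate 3). Anxa1, an inhibitor of phospholipase A2, fell from 108, 91.8 and 132 CPM to 4.31, 1.61 and 7.21 CPM (-4.61). By all gene counts neither was called (-0.16 and -0.36), and of the 7 genes 0 were lower and 5 higher, whereas by mouse counts alone 4 were lower and 0 higher. Pla2g6 and Mgll were called higher by TMM (2.31 and 2.84, neither by mouse counts alone, and Pla2g6 not after thinning, at 1.52), and the phospholipases Pla2g2a, Pla2g4b and Pla2g10 had no count in any library.

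Of the other prostanoid synthases, 8 of 9 could be tested, 3 fell (Hpgds, Tbxas1 and Akr1b3) and 2 rose (Prxl2b and Cbr1). By all gene counts 0 were lower and 6 higher, with Akr1b3 turned to a log2 fold change of 2.39 (adjusted p = 0.000603, edgeR). By TMM without siControl replicate 1 it was no longer called (-1.57, adjusted p = 0.0980). Cbr1 was not called under limma-voom (1.72, adjusted p = 0.0639) or without siControl replicate 1 (2.02, adjusted p = 0.0511) or 2 (1.68, adjusted p = 0.0673), with folds near the 1.95 of the TMM fit, nor by mouse counts alone (0.17) or after thinning (0.68). Tbxas1, thromboxane synthase of platelets and macrophages, went from 20.1, 9.66 and 17.3 CPM to 1.59, 0.605 and 1.39 CPM (log2 fold change -3.67, adjusted p = 0.000289, edgeR). Prxl2b, a prostamide and prostaglandin F synthase, went from 6.42, 4.83 and 3.35 CPM to 47.7, 42.0 and 78.4 CPM (3.56, adjusted p = 0.000176, edgeR). Synthases of the family thus lay on both sides. Of 5 platelet and megakaryocyte markers 4 fell by TMM (46.6 to 116 CPM summed against 11.7 to 20.9 CPM). By all gene counts 0 of these markers fell and 5 rose, on a scale where 87.2% of all mouse genes rose. The part of these markers in the fall of Tbxas1 was not tested. Ptges2 and Ptges3, the constitutive prostaglandin E2 synthases, were not called (0.56 and 0.65), beside the call of the inducible Ptges.

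The other lipoxygenases and the enzymes of cysteinyl leukotrienes were sparse. Of 12 in the table, 5 could be tested, none was called lower by edgeR and 1 rose, Mgst3, a microsomal glutathione transferase (7.23, 4.83 and 8.37 CPM against 21.0, 18.4 and 30.5 CPM, log2 fold change 1.69). Ltc4s, the leukotriene C4 synthase, was not called at 1, 1 and 7 counts against 20, 4 and 5 (-2.07), and Alox15 had at most 2 counts in a library. At an unadjusted p, edgeR also called 0 lower and DESeq2 2, and limma-voom called 2 lower after adjustment. By mouse counts alone edgeR called 4 lower and 0 higher, and by all gene counts 0 lower and 4 higher. Alox12b, Alox8 and Alox12e had no count in any library.

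Transport and breakdown genes went both ways, with 3 of 8 lower (Abcc1, Abcc4 and Cyp4f18), 3 higher (Slco2a1, Ptgr3 and Cyp4f14) and a median log2 fold change of 0.05. By all gene counts 1 was lower and 5 higher, and by mouse counts alone 4 and 1. Cyp4f18 and Cyp4f14, cytochromes P450 of one family that hydroxylate leukotriene B4, went in opposite directions. Cyp4f18, which neutrophils express, had 22.5, 67.6 and 42.4 CPM in siControl and 0.207, 0.403 and 0.444 CPM in siAATF (log2 fold change -6.97). Cyp4f14, a liver form, had 22.5, 0 and 2.23 CPM in siControl and 306, 80.3 and 137 CPM in siAATF (4.24, and 6.66 without siControl replicate 1 or 3.62 without siAATF replicate 1). Abcc1 and Abcc4, exporters of leukotriene C4 and of prostaglandins, fell by 4.16 and 2.96 on the log2 scale by TMM (0.07 and 1.23, neither called, by all gene counts, and for Abcc4 -4.47 without a call after thinning), and the prostaglandin importer Slco2a1 rose by 1.19 (adjusted p = 0.0446, edgeR). This last call was lost under RLE and upper-quartile scaling, DESeq2 and limma-voom (0.88 to 1.16), after thinning (0.36), and without siControl replicate 1, 2 or 3 or siAATF replicate 1 (0.90 to 1.36). The call of Ptgr3 was lost after thinning (0.90) and without siControl replicate 2 (1.45) or 3 (1.47), and by mouse counts alone Slco2a1 (-0.57) and Ptgr3 (-0.04) were not called.

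The epoxygenase and omega-hydroxylase branch, by which liver P450 enzymes handle arachidonic acid, rose in 10 of 12 tested genes, with a median log2 fold change of 3.91. No gene of it was called lower by edgeR, DESeq2 or limma-voom, at an adjusted or an unadjusted p, and 7 were higher by mouse counts alone (median 2.27) and 12 by all gene counts (8.15). Of all genes, 4.15% were higher by mouse counts alone and 87.2% by all gene counts. The call of Ephx1 was lost by mouse counts alone (0.17), after thinning (1.32) and without siControl replicate 2 or 3. That of Cyp2j6 was lost by mouse counts alone (0.96), and that of Cyp2j9 by mouse counts alone (2.01) and without siControl replicate 3 (3.74). Cyp2c29 had 1, 0 and 1 counts in siControl and 25898, 1138 and 2622 counts in siAATF, a ratio of summed rates of 985 (95% interval 273 to 8135, counting error only). Without siAATF replicate 1, which held most of these counts, its fitted log2 fold change went from 9.49 to 8.34. Cyp2c54 had no count in siControl and 217, 126 and 99.8 CPM in siAATF, at least 39.1-fold higher than the mean of the limits that 3 counts per library set. The soluble epoxide hydrolase gene Ephx2 rose by 3.88 on the log2 scale. The Cyp2c genes are close copies of one another, so the split of counts between them is uncertain. All 8 hepatocyte markers rose with them, as given for Hpgd, and their part was not tested.

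**Figure D4:**
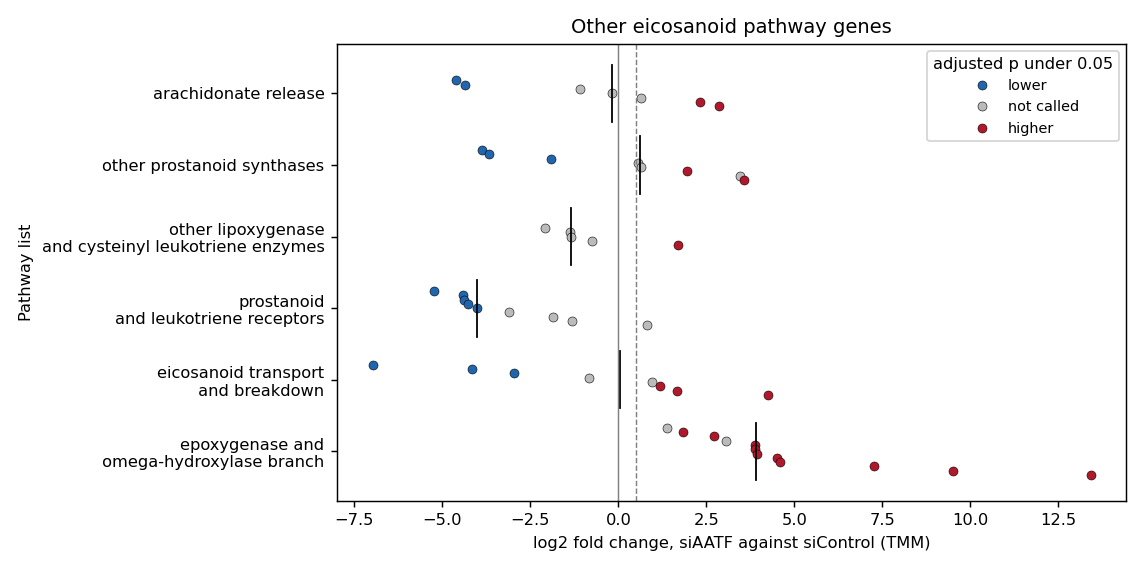
log2 fold change (TMM) of siAATF against siControl for the 49 tested genes of the 6 pathway lists, with a point per gene colored by its call at an adjusted p under 0.05, a black bar at each list's median and a dashed line at the median of all tested genes (0.50). The receptors lie mostly to the left (median -4.03), the epoxygenase branch to the right (3.91), and the other lists spread over both sides. Cyp2c54, farthest to the right, had no count in siControl, so its fitted fold depends on the prior count and is no bound.

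Genes with the most similar pattern were sought over the 6 libraries among 9457 mouse genes with a mean of at least 50 counts, by Pearson's r of log2(TMM CPM + 1). The closest to Ptgs2 were Vasp (r = 0.997), Plk2 (0.997) and Fam111a (0.996), and the closest to Alox5 were Necap2 (0.999), Spp1 (0.998) and Plau (0.997). The 6 libraries form 2 groups and share the gap in depth, and 404 genes had an r over 0.95 with Ptgs2 and 455 with Alox5, so these values are a description. Markers of further cell types also differed. Of 5 cholangiocyte markers 2 fell by TMM, Epcam and Spp1, while by all gene counts 0 fell and 3 rose. Their sum (1142 to 2310 CPM against 74.8 to 77.9 CPM) was almost all Spp1, and the other 4 summed to 38.5, 16.9 and 27.9 CPM in siControl and 31.6, 41.3 and 41.4 CPM in siAATF. Of 5 tested lymphocyte markers 2 fell by TMM, Nkg7 and Gzma (8.83 to 21.2 CPM against 1.41 to 6.38 CPM over the list), and by all gene counts 0 fell and 3 rose. On that last scale 87.2% of all mouse genes rose.

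The group comparison coincides with a change in what the libraries hold. Each siControl library was at most 1.93% mouse by counts and each siAATF library at least 97.9%, so the comparison sets mouse RNA within a mostly human sample against mostly mouse tissue, and the siRNA and that make-up cannot be told apart in these values. No gene of the table that overlaps a member had more than 13 counts in a library, and the strand setting of the authors' counting is not given in the sources used here.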

How the data were processed

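RNA labelled as liver from 6 samples, 3 siControl and 3 siAATF, was sequenced by the authors after SMART-Seq library preparation. Per the labels and methods, reads were trimmed with Cutadapt, aligned with STAR to the joined human and mouse genomes (GRCm39 for mouse) and counted on genes with featureCounts 2.0.1, and multi-mapped reads and reads matching both species were discarded. The deposited values are raw counts per gene, without normalization, in a mouse and a human table. A gencode annotation named 56323 of the 56884 mouse identifiers, and 561 stayed unnamed. The human table gave library totals only, after 1 broken row was left out.

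The mouse counts were tested with edgeR 4.0.16 (quasi-likelihood, TMM, limma 3.58.1, R 4.3.3) on genes totalling 10 counts or more, with the group as the only term. Genes were called at a Benjamini-Hochberg adjusted p under 0.05 over all 18018 genes tested. The SE of a log2 fold change was not taken from the fit. It is the size of the fold divided by the square root of its quasi-likelihood F statistic. Shares and sums were compared by two-sided exact permutation tests (scipy 1.17.1), whose smallest p is 0.1 at this size. Shares carry 95% Wilson intervals. Intervals, and the floor of 3 counts, describe counting error alone and treat each count as independent. PCR duplicates the molecules that are read, so the intervals can be too narrow and the floor too low.

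The genes named are the 9 members, the target Aatf and, in each of 6 pathway lists, up to 2 genes with the largest |log2 fold change| that were called and whose groups did not overlap. Other genes were named after their values were seen. The members, the pathway lists and the 10 marker lists were chosen with earlier results of these data known. In the lists, Plaat3 and Akr1b1 of the annotation are Pla2g16 and Akr1b3, and Dpep2, with 2 identifiers, was left out. Upstream sequences were read from GRCm39 with the starts of the deposited table. The alternatives were RLE, upper-quartile, mouse library size and all gene counts for scaling, other filters, DESeq2 1.42.0, limma-voom, the replicate number as a block, thinning to the smallest mouse total, leaving out each library, and the criteria of the study (unadjusted p under 0.05 and |log2 fold change| of at least 2). Those criteria were applied to the edgeR fit with TMM, whereas the study used DESeq2. Replicate numbers were not used to pair libraries.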

Additional observations from a re-analysis of the deposited data

How the results depend on the processing

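The 6 lower calls among the 9 genes stayed at 6 under RLE and upper-quartile scaling, filterByExpr, no filter, DESeq2, limma-voom, the replicate block and the criteria of the study on the edgeR fit. There were 8 under mouse library size alone, 4 after thinning, where Ptges and Alox5 could not be tested, and 1 with all gene counts. With at least 10 counts in every library, 0 members were lower, since none could be tested. Leaving out each library gave 5 to 6. Members called higher were 0 in the main analysis, 3 with all gene counts, and 1 without a filter, with the replicate block, and in the range of 0 to 1 on leaving out a library. That 1 gene was Hpgd each time. Of the other pathway genes, 13 were lower and 18 higher, with 23 and 9 under mouse library size alone, 1 and 35 with all gene counts, 1 and 2 at 10 counts in every library, and 11 higher after thinning. The summed members changed from a log2 ratio of 3.03 per all gene counts to -1.29 in TMM CPM.

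Signs of the members, the target and the genes named by the rule changed as follows. Ptgs1 was 4.21 with all gene counts, 0.10 without a filter, 0.028 with the replicate block, 0.44 after thinning, and -0.15 to 0.11 on leaving out a library. With all gene counts Ptges was 1.53, Ptgis 0.54 and Tbxas1 0.56, and of the other genes that fell Akr1b3 was 2.39, Abcc4 1.23, Cysltr1 0.24, Hpgds 0.17, Fpr2 0.08 and Abcc1 0.07. Under mouse library size alone Lta4h was -1.64, Hpgd -0.045, Mgst3 -0.11, Slco2a1 -0.57, Ptgr3 -0.04 and Aatf -0.92. After thinning Lta4h was -0.93 and Aatf -0.38, under upper-quartile scaling Lta4h was -0.17, and leaving out a library gave Lta4h -0.026 to 0.42. The cause of these changes was not tested, except that each scaling moves the median of all genes (0.40 under RLE, 0.23 under upper quartile, -1.30 under mouse library size, 4.66 with all gene counts, against 0.50). The 3 shares kept their direction in the alternatives where they could be computed. Thinning left too few counts in siAATF to weigh (Ptgs2 0 of 5, 0 of 1 and 0 of 1, and Hpgd 7 of 7, 3 of 3 and 3 of 3). It left no counts of Alox5 or Alox5ap there, so that share was not computed.

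Replicates with the same number in both groups had correlations of deviations of 0.145, 0.212 and -0.0229, so the numbers were not taken to pair the libraries, and siAATF replicate 3 correlated best with siControl replicate 1. Depth limits the members in siControl, where all but Alox5ap had under 10 counts in replicate 2. Values near 0 in siAATF are bounded by 3 counts per library. Nothing here separates the siRNA from the share of mouse RNA in a library.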
